A study of Mus musculus with 3 samples.

Results

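Hox genes encode transcription factors that give cells their position along the head-to-tail axis, and 39 of the 26851 genes in the deposited expression table of mouse CAD cells belonged to the 4 Hox clusters. Members were the rows that carry an alias made of Hox, a cluster letter from a to d and a number, and all 39 symbols had a single row. The HoxA cluster contributed 11 of them, HoxB 10, HoxC 9 and HoxD 9.

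Vertebrate Hox genes arose by duplication of an ancestral cluster, so genes with the same number in different clusters are paralogues and form a paralogue group. All genes of a cluster are read in the same direction, and genes at the 3′ end (low numbers) are used in the hindbrain and neck, while genes at the 5′ end (high numbers) are used progressively further towards the tail. Their proteins bind DNA through a homeodomain, often together with PBX and MEIS cofactors, and their chromatin is kept silent by Polycomb and active by trithorax proteins.

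CAD is a mouse catecholaminergic cell line that the labels call neuroblastoma, and the line is the same in all groups. Cells received siRNAs against Ptbp1 and Ptbp2 together, siRNAs against Ptbp1 alone, or control siRNAs, and poly(A)+ RNA was taken 72 h later. Ptbp1 and Ptbp2 encode polypyrimidine tract-binding proteins, which regulate splicing, and Ptbp2 is the form found mainly in neurons. Each group had 1 library, so no difference has a replicate check, and the intervals given are exact 95% intervals that cover counting error only.

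Summed over all rows of the deposited table, the read values came to 14242495 with both siRNAs, 16899549 with Ptbp1 siRNA and 16011466 with control siRNA. Ptbp1 itself had 1516 reads with both siRNAs and 1486 with Ptbp1 siRNA, against 7191 with control siRNA. Ptbp2 had 633 reads with both siRNAs, 3044 with Ptbp1 siRNA and 784 with control siRNA. On the log2 scale of scaled counts, Ptbp2 with both siRNAs differed from control by −0.21 and from Ptbp1 siRNA by −1.99. Among catecholaminergic markers, Hand2 was at 12542, 13451 and 13586 reads and Th, tyrosine hydroxylase, at 1133, 1581 and 1426 with both siRNAs, Ptbp1 siRNA and control siRNA. Over all genes assessed between both siRNAs and control, 3.78% differed by at least 2-fold on that log2 scale, in either direction, beyond counting error. Of the 9 catecholaminergic markers assessed in that comparison, 2 rose by that much and 5 lay above 0. Those that rose were Dbh, dopamine beta-hydroxylase, at 4671 reads with both siRNAs and 4743 with Ptbp1 siRNA, against 2153 with control siRNA, and Phox2a, a regulator of such neurons, at 2940 and 1982, against 1522. The astrocyte gene Slc1a3, the fibroblast gene Col1a2 and the blood gene Hbb-b1 were at 0 in all 3 libraries. Another fibroblast gene, Col1a1, fell to 48 reads with both siRNAs and had 88 with Ptbp1 siRNA, against 122 with control siRNA. Summed over the 6 fibroblast markers the level was 1.01, 1.63 and 1.89 RPKM, and over the 5 blood and endothelial markers 1.93, 2.78 and 3.51 RPKM, with both siRNAs, Ptbp1 siRNA and control siRNA. Over the 10 catecholaminergic markers it was 619, 519 and 499 RPKM. The part of these shifts in the Hox values was not tested.

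Hox genes held 2562 reads with both siRNAs, 2739 with Ptbp1 siRNA and 2289 with control siRNA. This was 0.0182%, 0.0164% and 0.0145% of the reads summed over the 26851 genes, in the same order. Of the 39 genes, 13 reached 30 reads in at least 1 library and 26 did not. The 6 genes Hoxa2, Hoxa6, Hoxa10, Hoxa11, Hoxa13 and Hoxc12 had no read in any library, and a further 9 never had more than 1. Just above the limit of 30 reads lay Hoxb4 with at most 51 and Hoxd8 with at most 54 reads, and below it lay Hoxb2 with at most 11. In bulk RNA, a gene carried by fewer cells and a gene with less RNA in each cell cannot be told apart.

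Because homeoboxes are alike, it matters whether reads of 36 bases can tell the genes apart. The homeobox of Hoxc10, the gene with the highest level in control cells, is shown with those of its paralogues Hoxa10 and Hoxd10, which were at or near 0, and of Hoxc9, its neighbour and the other gene with a high level. Each is the stretch of 180 coding bases from the mouse GENCODE annotation on mm9, and capitals mark bases that differ from Hoxc10.
Hoxc10: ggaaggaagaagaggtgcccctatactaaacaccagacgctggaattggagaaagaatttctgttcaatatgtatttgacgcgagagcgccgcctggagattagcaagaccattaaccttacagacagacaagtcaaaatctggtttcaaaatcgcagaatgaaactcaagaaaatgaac
Hoxa10: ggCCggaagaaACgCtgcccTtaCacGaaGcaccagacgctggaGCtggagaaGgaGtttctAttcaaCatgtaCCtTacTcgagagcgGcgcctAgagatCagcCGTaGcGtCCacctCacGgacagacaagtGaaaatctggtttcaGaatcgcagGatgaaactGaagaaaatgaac
Hoxd10: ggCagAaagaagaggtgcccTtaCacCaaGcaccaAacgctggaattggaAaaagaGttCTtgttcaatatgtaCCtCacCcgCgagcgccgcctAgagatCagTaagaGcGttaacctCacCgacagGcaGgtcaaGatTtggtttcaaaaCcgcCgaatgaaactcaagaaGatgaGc
Hoxc9: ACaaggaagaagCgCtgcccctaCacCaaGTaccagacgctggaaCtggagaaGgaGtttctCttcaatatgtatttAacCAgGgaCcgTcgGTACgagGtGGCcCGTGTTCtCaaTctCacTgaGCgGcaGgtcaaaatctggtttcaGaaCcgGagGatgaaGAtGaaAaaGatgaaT
Hoxa10 differed from Hoxc10 at 35 of these bases, Hoxd10 at 31 and Hoxc9 at 51. The longest run of identical bases was 14 with Hoxa10, 16 with Hoxd10 and 17 with Hoxc9, shorter than a read. Over all 42 pairs of paralogues in the same group, homeobox identity had a median of 80.6% and ranged from 67.2% to 93.9%, and 2 pairs shared a run of 36 or more identical bases. Over the 699 pairs from different groups the median was 60.6%, and 5 pairs shared such a run.

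Over whole annotated transcripts, Hoxc10, Hoxc4, Hoxc5, Hoxc6, Hoxb5 and Hoxd8 shared no window of 36 bases with transcripts of another protein-coding gene, and 23 of the 39 genes were in that position. Hoxc9 shared 1.19% of its windows with any other gene and 0.128% with other Hox genes. Hoxd4 shared 43.1% of its windows with Hoxd3, whose annotated transcripts run across it, so the split of reads between these neighbours is uncertain. Hoxb8 shared 38.1% of its windows with Hoxb7, which makes their low values uncertain too.

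The Hox genes read in CAD cells were mainly those of HoxC. HoxC genes held 81.0% of all Hox reads with both siRNAs (interval 79.4% to 82.5%), 81.1% with Ptbp1 siRNA (79.5% to 82.5%) and 78.1% with control siRNA (76.4% to 79.8%). HoxB genes held 10.2% with both siRNAs, 11.5% with Ptbp1 siRNA and 13.2% with control siRNA. HoxD genes held 8.55%, 6.86% and 7.78% in the same order. HoxA genes held 0.312%, 0.548% and 0.874%. The order HoxC, HoxB, HoxD, HoxA was thus the same in the 3 libraries. With both siRNAs, however, the intervals of HoxB (9.04% to 11.4%) and HoxD (7.49% to 9.70%) overlapped.

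**Figure D1:**
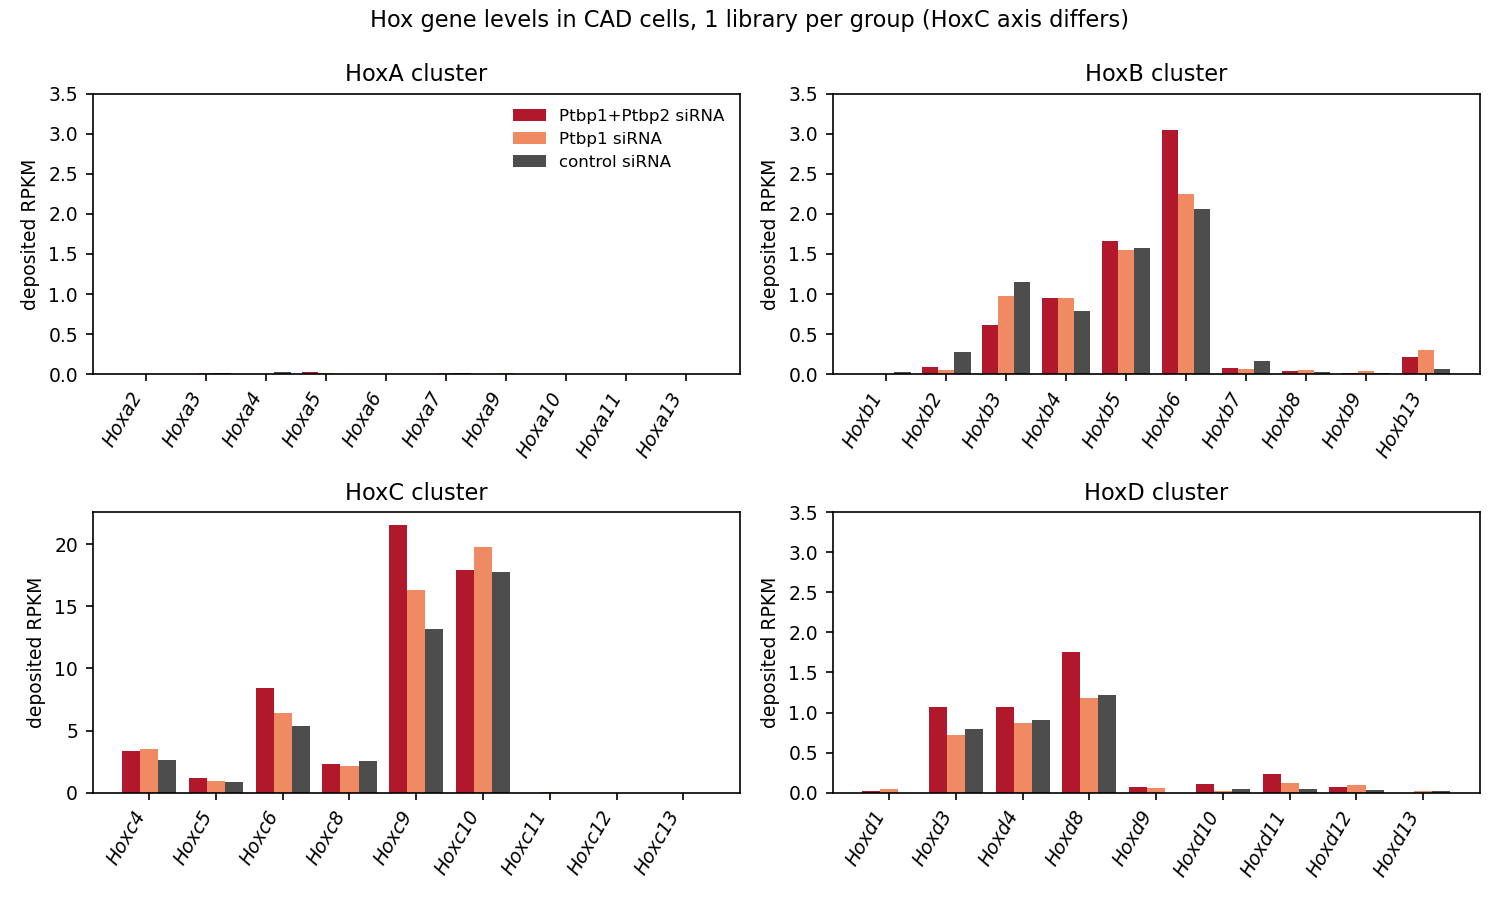
Deposited RPKM of Hox genes by cluster, in order of paralogue group, with bars for both siRNAs, Ptbp1 siRNA and control siRNA (1 library each, no error bars). The HoxC axis reaches above 20 and the others end at 3.5. In the HoxC panel, genes from Hoxc4 to Hoxc10 have bars and Hoxc11 to Hoxc13 have none visible.

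Levels of different genes were compared per length, as RPKM, the reads of a gene scaled to its exon length and to the library. Hoxc10, a posterior gene that in mice is used at lumbar level, stood at 18.0 RPKM with both siRNAs, 19.8 with Ptbp1 siRNA and 17.8 with control siRNA. Hoxc9, which marks thoracic level in the mouse spinal cord, stood at 21.5, 16.3 and 13.2 RPKM in the same libraries. They were the 2 highest Hox genes in every library, with Hoxc9 first with both siRNAs and Hoxc10 first in the other libraries. In the control library Hoxc10 ranked 3183 among 26851 genes, with 11.9% of genes above it, and Hoxc9 ranked 4125.

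The remaining HoxC genes from group 4 to group 8 were lower. Hoxc6, used at the level of the forelimb, stood at 8.40 RPKM with both siRNAs, 6.40 with Ptbp1 siRNA and 5.37 with control siRNA. Hoxc4, a gene of the neck region, stood at 3.40, 3.54 and 2.61 RPKM in that order. Hoxc8, whose product acts in motor neurons of the brachial cord in mice, stood at 2.30, 2.15 and 2.56 RPKM, and Hoxc5, another neck-level gene, at 1.19, 0.971 and 0.864 RPKM. The levels followed no even order along the cluster, since Hoxc8 lies between the higher Hoxc9 and Hoxc6, and Hoxc5 between the higher Hoxc6 and Hoxc4.

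At the 5′ end the HoxC signal ended between Hoxc10 and Hoxc11. Hoxc10 had 646 reads with both siRNAs, 847 with Ptbp1 siRNA and 717 with control siRNA, while Hoxc11 had 0, 1 and 0. Hoxc12 had no read, and Hoxc13 had 0, 1 and 0. The starts of Hoxc10 and Hoxc11 lie 12.3 kb apart. Per length, Hoxc10 was at least 118-fold above Hoxc11 with both siRNAs and at least 131-fold with control siRNA, taking 3 reads per library as the limit for a count of 0. With Ptbp1 siRNA, where Hoxc11 had 1 read, the ratio was 465.

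The bases around the annotated start of Hoxc9, the Hox gene with the highest ratio of both siRNAs to control among the 13, are given from 250 bases before to 50 bases after the start of the table's span. They lie on the + strand of mm9 at chr15:102807214-102807513, and capitals mark CpG pairs, the sites of DNA methylation.
Hoxc9: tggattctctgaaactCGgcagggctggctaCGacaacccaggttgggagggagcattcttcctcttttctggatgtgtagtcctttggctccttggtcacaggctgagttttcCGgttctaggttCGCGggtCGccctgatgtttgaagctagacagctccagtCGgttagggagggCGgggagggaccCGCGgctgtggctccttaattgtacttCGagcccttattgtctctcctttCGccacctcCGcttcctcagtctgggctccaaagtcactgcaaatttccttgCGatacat
This window held 14 CpG pairs. Over windows of the same length at the 13 Hox genes with 30 or more reads the median was 11 CpG pairs and the range 3 (Hoxb3) to 59 (Hoxd8), and over the other 26 the median was 17.5. Among all genes in the table the order was the other way, with a median of 22 for the 12549 genes with 30 or more reads and 4 for the 14171 below. Each window sits at the outer 5′ end of a span, which in a long span may be a distant upstream start. Among the 13 genes, Hoxb3, Hoxd3, Hoxc4 and Hoxc6 have the longest spans, and their windows held 3, 4, 6 and 7 CpG pairs. Hoxa3, with the longest span among the other 26, had 7. The part of window placement in the Hox medians was not tested. The letters TGATNNAT, a form of the site bound by PBX and HOX proteins together, were searched on both strands. They occurred in 1 of the 13 windows (Hoxb5), in 9 of the other 26 and in 7.83% of all 26720 windows of the same length. Among all genes the share was 4.05% with 30 or more reads and 11.2% below. By cluster, matches lay in 6 of 10 HoxB windows, 2 of 11 in HoxA, 1 of 9 in HoxC and 1 of 9 in HoxD. A match describes letters only, and Hoxc9 had none.

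In HoxB, the signal covered Hoxb3 to Hoxb6. Hoxb6, the highest HoxB gene, stood at 3.05 RPKM with both siRNAs, 2.24 with Ptbp1 siRNA and 2.07 with control siRNA. Hoxb5, which in mice acts in neural crest and gut neurons, stood at 1.66, 1.54 and 1.57 RPKM, and Hoxb4, known for its role in blood stem cells, at 0.956, 0.953 and 0.793 RPKM. Hoxb3, a gene of the posterior hindbrain, stood at 0.610 RPKM with both siRNAs, 0.974 with Ptbp1 siRNA and 1.15 with control siRNA. It was the lowest of the 4 genes with both siRNAs, while Hoxb4 was nominally the lowest in the other libraries.

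HoxB levels were low on both sides of this block. Hoxb7 had 2 reads with both siRNAs, 2 with Ptbp1 siRNA and 5 with control siRNA, and its start lies 12.5 kb from that of Hoxb6. Hoxb2, a target of hindbrain regulators, had 3 reads with both siRNAs and 2 with Ptbp1 siRNA, against 11 with control siRNA. The Hoxb2 ratio was 0.292 (0.0522 to 1.10) for both siRNAs over control and 0.163 (0.0176 to 0.749) for Ptbp1 siRNA over control. Hoxb13, the gene at the far 5′ end, had 6 and 10 reads with both siRNAs and Ptbp1 siRNA, against 2 with control siRNA. Hoxb1, Hoxb8 and Hoxb9 had between 0 and 4 reads. Counts this small carry wide intervals, and the Hoxb13 ratio of both siRNAs to control of 3.21 had an interval of 0.573 to 32.5.

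HoxD was active at 3 genes, Hoxd3, Hoxd4 and Hoxd8. Hoxd8 stood at 1.76 RPKM with both siRNAs, 1.18 with Ptbp1 siRNA and 1.22 with control siRNA. Hoxd4, a gene of the posterior hindbrain, stood at 1.07, 0.868 and 0.906 RPKM, and Hoxd3, which in mice shapes the first neck vertebrae, at 1.06, 0.723 and 0.789 RPKM. Hoxd9, which starts 7.73 kb from Hoxd8 on its 5′ side, had 3 reads with both siRNAs, 3 with Ptbp1 siRNA and 0 with control siRNA. Hoxd10 to Hoxd13, the genes of limb and tail, had between 0 and 6 reads, and Hoxd1 between 0 and 2.

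In HoxA, none of the 11 genes reached 30 reads in any library, and 5 had no read at all. Summed over the cluster, HoxA held 8 reads with both siRNAs and 15 with Ptbp1 siRNA, against 20 with control siRNA. The ratio of both siRNAs to control was 0.428 (0.163 to 1.01), an interval that included 1.

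**Figure D2:**
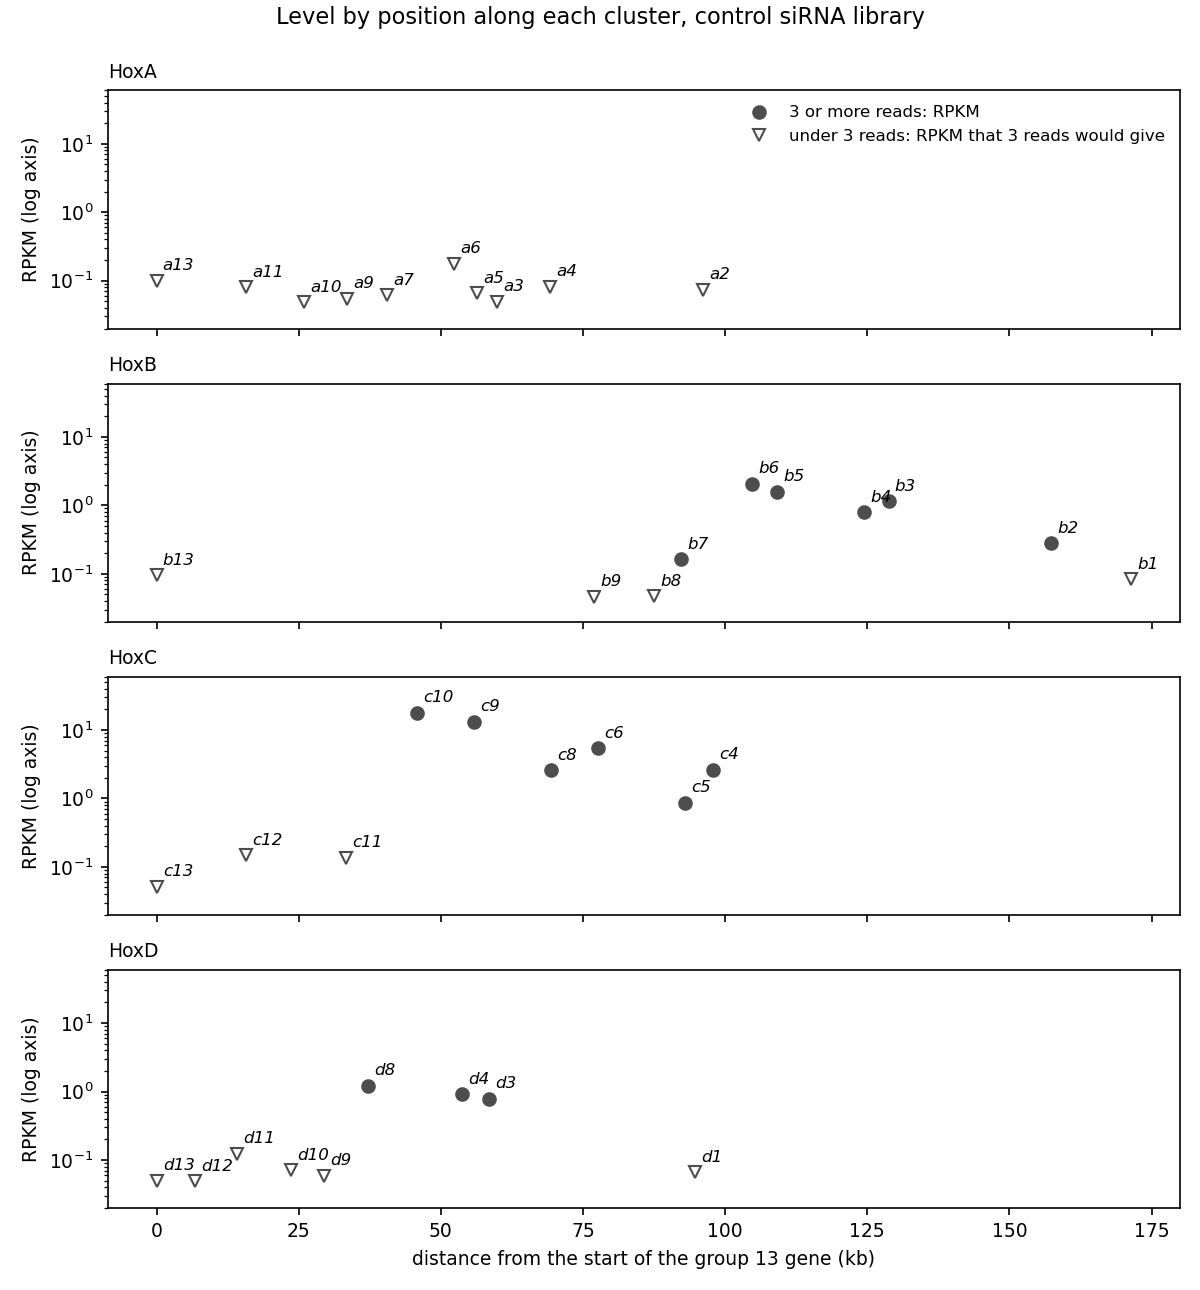
Level in the control library (RPKM, log axis) against the distance in kb of each plotted gene's start from the start of the group 13 gene of its cluster. Filled points are genes with 3 or more reads, and open triangles show the RPKM that 3 reads would give for genes with fewer. Hoxc10 and Hoxc9 stand at 17.8 and 13.2 RPKM, next to the triangles of Hoxc11 to Hoxc13. Starts are those of the table's spans, which for Hoxa3 include a distant upstream start.

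By paralogue group, group 9 and group 10 held the largest shares of the summed Hox RPKM. Group 9 held 32.7% with both siRNAs, 27.9% with Ptbp1 siRNA and 25.4% with control siRNA, and group 10 held 27.4%, 33.7% and 34.4%. In both groups the HoxC member carried almost everything, since Hoxa9, Hoxa10, Hoxb9, Hoxd9 and Hoxd10 had at most 4 reads. Group 6 followed with 17.3%, 14.7% and 14.3%, carried by Hoxc6 and Hoxb6. Groups 11, 12 and 13 together drew on 9 genes, and the highest count among them was the 10 reads of Hoxb13 with Ptbp1 siRNA.

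Ordered by RPKM in the control library, the 13 genes ran Hoxc10, Hoxc9, Hoxc6, Hoxc4, Hoxc8, Hoxb6, Hoxb5, Hoxd8, Hoxb3, Hoxd4, Hoxc5, Hoxb4 and Hoxd3. The first 3 steps in this order had intervals of the ratio that excluded 1, and the other 9 neighbouring pairs did not. From Hoxc4 downward, neighbours in the order therefore did not differ beyond counting error. With both siRNAs 4 of the 12 steps excluded 1, and with Ptbp1 siRNA 5 did.

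Other transcripts inside the clusters had few reads. The table held 12 further rows within the cluster spans, of which 9 had no read. The highest were a HoxD row known only by its transcript ID, with 8 reads with both siRNAs, 8 with Ptbp1 siRNA and 15 with control siRNA, and 0610040B09Rik with 13, 14 and 6 reads. Of 23 transcripts listed inside the clusters, 5 had a row. Their summed level was 1.03 RPKM with both siRNAs, 1.06 with Ptbp1 siRNA and 0.425 with control siRNA. 0610040B09Rik is 584 bases long, so few reads give it a higher level per length than they give a longer gene. 0610040B09Rik lies on the opposite strand across Hoxb5 and Hoxb6. The library preparation described in the labels marks no strand, so reads of these overlapping genes cannot be told apart.

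Genes that flank the clusters had their own levels. Mtx2, next to the 3′ end of HoxD, had 1660 reads with both siRNAs, 1431 with Ptbp1 siRNA and 1210 with control siRNA. Evx1 and Evx2, homeobox genes that sit beyond the 5′ ends of HoxA and HoxD, had no read. Of the 22 neighbouring genes, 20 reached 1 CPM (the read count scaled to the library size) in the comparison of both siRNAs with control. Their median difference was −0.030 on the log2(CPM + 1) scale and 10 lay above 0. Calcoco1, 199 kb away on the 5′ side of HoxC, was at 531 reads with both siRNAs and 917 with Ptbp1 siRNA, against 1129 with control siRNA, a difference of −0.97 between both siRNAs and control.

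Whether the knockdowns altered this code was examined for genes with 30 or more reads. A gene was called by size when its log2(CPM + 1) differed by at least 1 between libraries, it reached 1 CPM in the higher library, and the interval of the CPM ratio excluded 1. None of the 14 Hox genes that reached 1 CPM was called between both siRNAs and control, where 3.78% of all genes were called. None of 14 was called between Ptbp1 siRNA and control, where 0.738% of all genes were called, and none of 13 between both siRNAs and Ptbp1 siRNA, where 0.45% were called. With 1 library a group there is no test behind these counts. Both comparisons with control use the same control library.

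Without a limit on size, some intervals excluded 1. Between both siRNAs and control, 3 of the 13 Hox genes (Hoxc9, Hoxc6 and Hoxb6) lay above 1 and 1 (Hoxb3) below, together 4 of 13. Of the 12558 genes of the table with 30 or more reads, 29.9% lay above and 33.7% below, together 63.6%. Between Ptbp1 siRNA and control, 2 of 13 (Hoxc9 and Hoxc4) lay above and 0 below, against 21.9% and 27.5% of all such genes, together 49.4%. Between both siRNAs and Ptbp1 siRNA, 3 of 13 (Hoxc9, Hoxc6 and Hoxd3) lay above and 1 (Hoxb3) below, against 23.3% and 23.6%, together 46.8%. Most Hox genes have fewer than 100 reads in a library, which widens their intervals.

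The median difference of the 13 genes between both siRNAs and control was 0.29 on the log2(CPM + 1) scale, with 10 of 13 above 0. The median of all genes with 30 or more reads was −0.016. Between Ptbp1 siRNA and control the Hox median was 0.041 with 7 of 13 above 0, and the median of all such genes −0.012. Between both siRNAs and Ptbp1 siRNA it was 0.24 with 10 of 13 above 0, against −0.0053 for all such genes, but it was −0.056 over the Hox genes with 100 or more reads. On this scale, which shrinks the differences of low genes, 11, 13 and 13 of the 13 genes lay within 1.5-fold in these comparisons, as did 82.8%, 93.7% and 94.9% of all such genes.

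**Figure D3:**
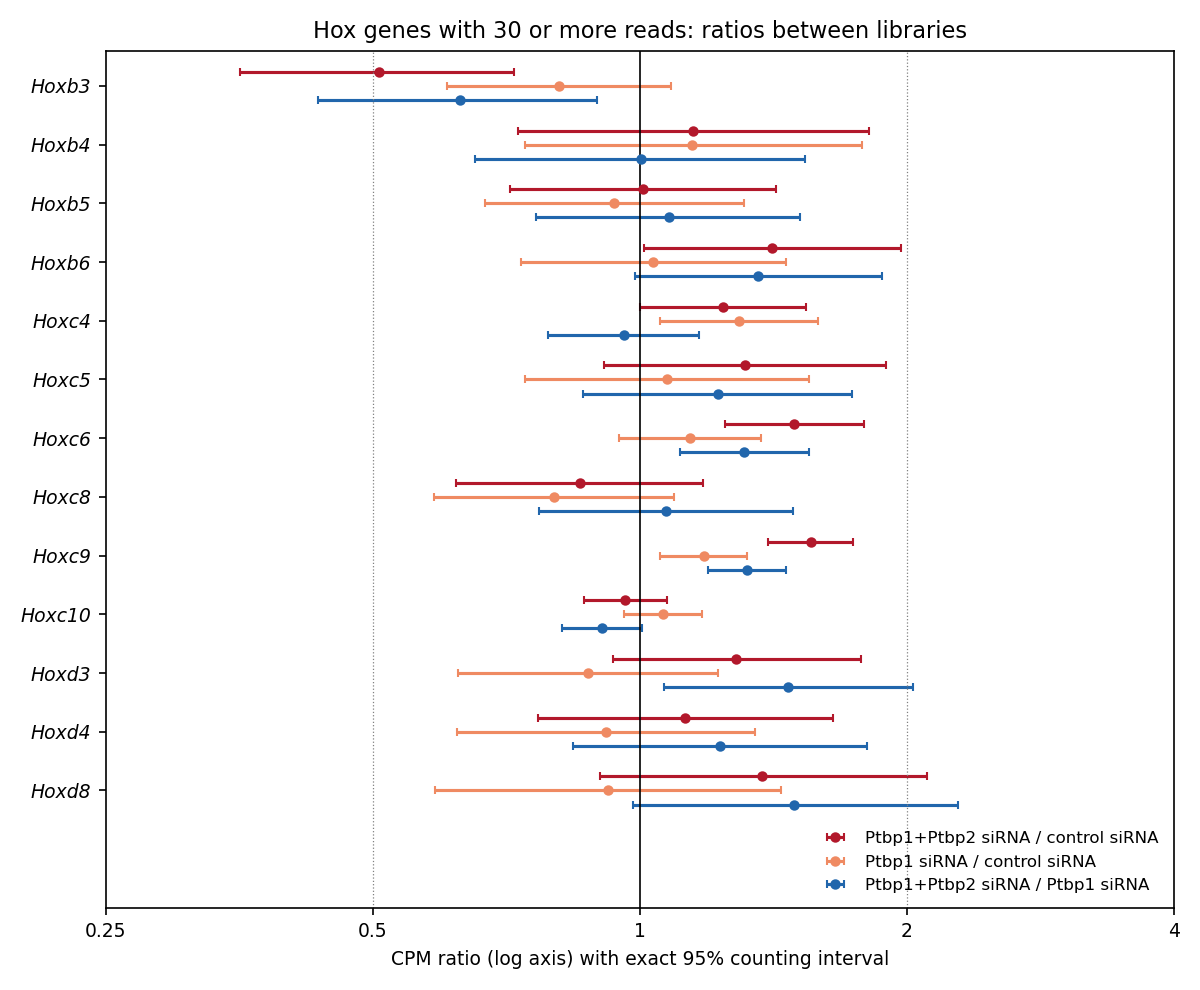
CPM ratios of the 13 Hox genes with 30 or more reads (log axis) for both siRNAs over control, Ptbp1 siRNA over control and both siRNAs over Ptbp1 siRNA. Points are ratios of single libraries and bars exact 95% counting intervals, and dotted lines mark 2-fold in either direction. Hoxc9 lies at 1.56 and Hoxb3 at 0.509 for both siRNAs over control.

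Hoxc9 was at 798 reads with both siRNAs and 718 with Ptbp1 siRNA, against 547 with control siRNA, which is 55.9, 42.3 and 35.8 CPM. The library with both siRNAs was highest and the control library lowest. The ratio was 1.56 (1.40 to 1.74) for both siRNAs over control, 1.18 (1.05 to 1.32) for Ptbp1 siRNA over control and 1.32 (1.19 to 1.46) for both siRNAs over Ptbp1 siRNA. All 3 intervals excluded 1, and none of the ratios reached the size limit.

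Hoxc10, the next gene in the cluster, had intervals that included 1 in all 3 comparisons. It was at 646 reads with both siRNAs, 847 with Ptbp1 siRNA and 717 with control siRNA, which is 45.2, 49.9 and 47.0 CPM. The ratio was 0.963 (0.865 to 1.07) for both siRNAs over control, 1.06 (0.960 to 1.17) for Ptbp1 siRNA over control and 0.907 (0.817 to 1.01) for both siRNAs over Ptbp1 siRNA. The first of these lay slightly above 1 when libraries were scaled by their totals, and the second interval then excluded 1.

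A comparison of both genes within a library needs no scaling between libraries. Hoxc9 held 55.3% of the reads of the pair with both siRNAs (52.7% to 57.8%), 45.9% with Ptbp1 siRNA (43.4% to 48.4%) and 43.3% with control siRNA (40.5% to 46.1%). The ratio of Hoxc9 to Hoxc10 was thus 1.62-fold higher with both siRNAs than with control siRNA (1.39 to 1.89) and 1.46-fold higher than with Ptbp1 siRNA (1.26 to 1.69). Between Ptbp1 siRNA and control siRNA it was 1.11 (0.954 to 1.29), an interval that included 1. The pair was picked because both genes are high and adjacent, and after their values had been seen.

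**Figure D4:**
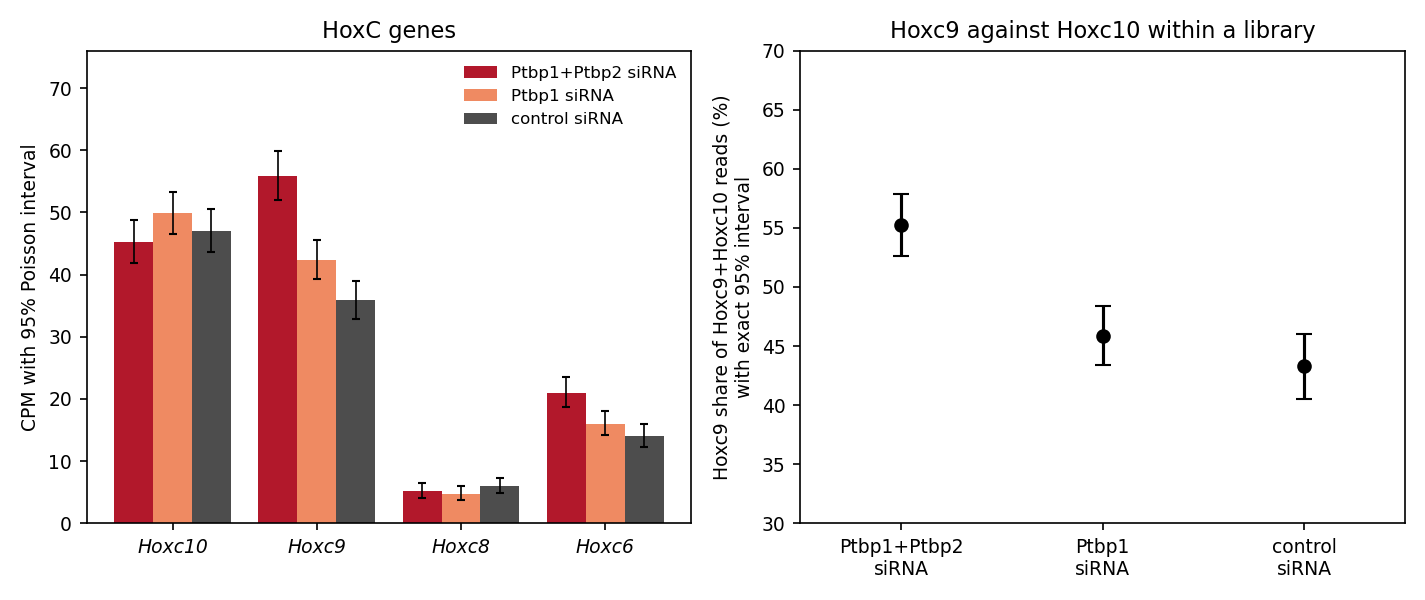
Left, CPM of 4 HoxC genes in order from the 5′ side with 95% Poisson intervals. Right, the share of Hoxc9 among reads of Hoxc9 and Hoxc10 in each library with exact 95% intervals, on an axis from 30% to 70%. The share is 55.3% with both siRNAs, 45.9% with Ptbp1 siRNA and 43.3% with control siRNA.

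Hoxc6 was at 299 reads with both siRNAs and 271 with Ptbp1 siRNA, against 214 with control siRNA. The order of the libraries was that of Hoxc9. The ratio was 1.49 (1.25 to 1.79) for both siRNAs over control, 1.14 (0.948 to 1.37) for Ptbp1 siRNA over control and 1.31 (1.11 to 1.55) for both siRNAs over Ptbp1 siRNA. Hoxc8, which lies between Hoxc9 and Hoxc6, was at 73 reads with both siRNAs and 81 with Ptbp1 siRNA, against 91 with control siRNA. Its ratio of both siRNAs to control was 0.857 (0.621 to 1.18). Within libraries, the ratio of Hoxc6 to Hoxc8 was 1.74-fold higher with both siRNAs than with control siRNA (1.20 to 2.52), and that of Hoxc9 to Hoxc8 1.82-fold higher (1.30 to 2.56).

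Hoxc4 was at 188 reads with both siRNAs and 233 with Ptbp1 siRNA, against 162 with control siRNA. The ratio was 1.29 (1.05 to 1.59) for Ptbp1 siRNA over control and 1.24 (1.00 to 1.54) for both siRNAs over control. The second interval just included 1, and excluded it under both other scalings of the libraries. Hoxc5 was at 70 reads with both siRNAs, 68 with Ptbp1 siRNA and 57 with control siRNA, and its intervals included 1 in all 3 comparisons. Summed over the cluster, the HoxC ratio was 1.24 (1.16 to 1.32) for both siRNAs over control and 1.12 (1.05 to 1.19) for Ptbp1 siRNA over control, with Hoxc9 and Hoxc10 giving most of the reads.

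Hoxb3 had the lowest ratio of the 13 genes between both siRNAs and control. It was at 49 reads with both siRNAs and 93 with Ptbp1 siRNA, against 103 with control siRNA, which is 3.43, 5.48 and 6.75 CPM. The library with both siRNAs was lowest. Its ratio was 0.509 (0.354 to 0.721) for both siRNAs over control, 0.812 (0.607 to 1.09) for Ptbp1 siRNA over control and 0.626 (0.434 to 0.895) for both siRNAs over Ptbp1 siRNA. On the log2(CPM + 1) scale the first difference was −0.81, short of the size limit. Low genes such as this one have their differences understated on that scale.

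The other 3 active HoxB genes lay at or above their control level with both siRNAs. Hoxb4 was at 43 reads with both siRNAs, 51 with Ptbp1 siRNA and 40 with control siRNA, and Hoxb5 at 68, 75 and 72. Hoxb6 was at 87 reads with both siRNAs and 76 with Ptbp1 siRNA, against 66 with control siRNA, with a ratio of 1.41 (1.01 to 1.97) for both siRNAs over control. Within libraries, the ratio of Hoxb3 to Hoxb6 with both siRNAs was 0.362 of that with control siRNA (0.220 to 0.591), and the ratio of Hoxb3 to Hoxb4 was 0.444 of it (0.247 to 0.795). These pairs, like those with Hoxc8, were picked after the values had been seen. Summed over HoxB, the ratio was 0.921 (0.777 to 1.09) for both siRNAs over control.

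The 3 active HoxD genes were all highest with both siRNAs. Hoxd3 was at 89 reads with both siRNAs, 72 with Ptbp1 siRNA and 74 with control siRNA. Hoxd4 was at 59, 57 and 56 reads and Hoxd8 at 54, 43 and 42 reads in the same order. Their log2(CPM + 1) differences between both siRNAs and control were 0.31, 0.14 and 0.35, and between Ptbp1 siRNA and control −0.16, −0.10 and −0.087. In CPM, the interval of Hoxd3 excluded 1 between both siRNAs and Ptbp1 siRNA, where the ratio was 1.47 (1.07 to 2.03). For both siRNAs over control, the intervals of Hoxd3 (0.934 to 1.77), Hoxd4 (0.768 to 1.65) and Hoxd8 (0.901 to 2.11) all included 1. Summed over HoxD, the ratio was 1.32 (1.07 to 1.61) for both siRNAs over control and 0.950 (0.769 to 1.17) for Ptbp1 siRNA over control. The spans of Hoxd3 and Hoxd4 overlap, so a read may count for both genes and the intervals of these sums may be too narrow.

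Proteins that work with or on Hox genes were read from lists of genes, none of which had a member called by size in any of the 3 comparisons. Over all genes, 3.78% were called between both siRNAs and control, 0.738% between Ptbp1 siRNA and control and 0.45% between both siRNAs and Ptbp1 siRNA, so a count of 0 in lists of 9 to 19 genes is near the background. All 9 PBX, MEIS and PKNOX cofactor genes had 30 or more reads, and their median log2(CPM + 1) difference between both siRNAs and control was −0.19, with 3 of 9 above 0. Meis1 was at 424 reads with both siRNAs and 602 with Ptbp1 siRNA, against 686 with control siRNA, a difference of −0.58 between both siRNAs and control. Pbx2 and Pbx4 differed by −0.46 and −0.44 in that comparison and Meis3 by 0.31.

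The 10 genes of Polycomb repressive complex 2, which methylates histone H3 at silent Hox genes, had a median difference of 0.11 between both siRNAs and control, with 7 above 0. Phf1 differed by −0.71, Ezh1 by −0.53, Suz12 by −0.29 and Rbbp4 by 0.26. Ezh2, its main catalytic subunit in dividing cells, had 2488 reads with both siRNAs, 2802 with Ptbp1 siRNA and 2477 with control siRNA. The 19 genes of Polycomb repressive complex 1, which compacts chromatin and modifies histone H2A, had a median difference of 0.023 with 10 above 0, and Pcgf5 differed by −0.62, Phc1 by −0.46, Cbx8 by −0.40 and Pcgf6 by 0.38.

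The 19 genes of trithorax complexes, histone demethylases and the boundary factor Ctcf had a median difference of −0.024 with 8 above 0. Kdm6b, a demethylase that removes the Polycomb mark, was at 1901 reads with both siRNAs and 2845 with Ptbp1 siRNA, against 3607 with control siRNA. Its log2(CPM + 1) difference between both siRNAs and control was −0.82, and those of Dpy30, Mllt1 and Setd1b were 0.51, 0.47 and 0.35. None of these differences reached the size limit.

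Retinoic acid is a known inducer of 3′ Hox genes, and 9 of the 18 genes of its pathway in the table reached 1 CPM between both siRNAs and control. Their median difference was −0.34 with 3 of 9 above 0. Cyp26b1, which degrades retinoic acid, was at 69 reads with both siRNAs and 143 with Ptbp1 siRNA, against 137 with control siRNA, a difference of −0.77 between both siRNAs and control. The receptor genes Rxrb, Rarg and Rara differed by −0.56, −0.43 and −0.35. Rarb, a receptor gene that retinoic acid induces, had 8, 8 and 6 reads, and Cyp26a1, another such gene, 1, 0 and 0 reads, with both siRNAs, Ptbp1 siRNA and control siRNA.

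**Figure D5:**
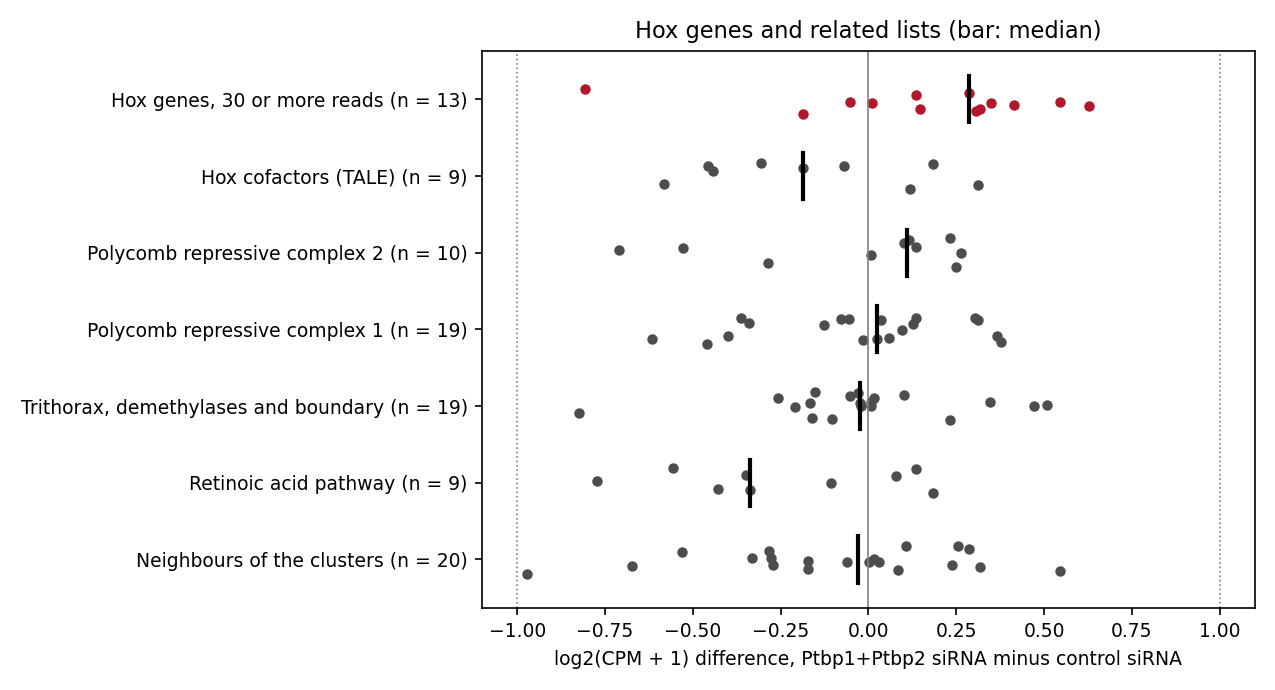
Differences on the log2(CPM + 1) scale, both siRNAs minus control, of the 13 Hox genes and of 6 lists of related or neighbouring genes. Each point is a gene, the black bar is the median, and dotted lines mark the size limit of 1 in either direction. The Hox median is 0.29, the cofactor median −0.19 and the retinoic acid median −0.34.

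Among homeobox relatives outside the clusters, the 8 ParaHox and Evx genes had at most 1 read each. Of the 17 midbrain and hindbrain factors in the list, 4 had 30 or more reads in a library. Otx1, a forebrain and midbrain gene, was at 316 reads with both siRNAs, 509 with Ptbp1 siRNA and 477 with control siRNA. Gbx1 was at 50, 67 and 44 reads and Pax5 at 18, 32 and 27 in the same libraries. En1, En2 and Otx2 had at most 1 read.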

How the data were processed

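RNA-seq libraries of siRNA-treated CAD cells (3 libraries, 1 per group) were analysed from a table of the whole series. Positions are on mm9 per the file headers, which the submitters' processing notes also name. Not given in the sources used here are the aligner, the counter and whether reads or pairs were counted. Values in the deposited table are of 2 kinds. The deposited read values are whole numbers and were treated as counts although they are net values, a score with no stated origin: 38 rows fell below 0 (lowest −65) and were left out, with 127 rows without a length. The deposited RPKM values, also used as a score, divide them by exon length and a library total. That total, as implied by the values, was 21572838 with both siRNAs, 25649604 with Ptbp1 siRNA and 24167120 with control siRNA. Rows were named by alias and by position in mouse GENCODE on mm9, keeping the row with the highest mean per symbol, which left 26851 of 27389 rows.

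TMM factors (trimmed mean of M-values, with 30% trimmed on M and 5% on A) corrected the library sizes (1.01 with both siRNAs, 1.02 with Ptbp1 siRNA and 0.968 with control siRNA) with Python 3.11.15, numpy 2.4.6, pandas 2.3.3 and scipy 1.17.1, and figures were drawn with matplotlib 3.10.9. A level of 1 CPM corresponds to 14.3, 17.0 and 15.3 reads in these libraries. Differences are on the log2(CPM + 1) scale (pseudocount 1), and ratios have no pseudocount. Intervals are exact conditional binomial (Clopper-Pearson), shares have exact binomial intervals, and a count of 0 allows 3 reads. Intervals cover counting error only, since each group has 1 library. They may be too narrow even for that, since reads of a PCR-amplified library without molecular identifiers may repeat a molecule. The calculation was tested on simulated data. The plan assumed read counts, and the count form was kept.

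Hox genes with 30 or more reads in at least 1 library, up to 4 genes per related list with the largest difference between both siRNAs and control, genes next to or inside the clusters and the targeted genes were named, and genes outside this rule were named after their values had been seen. Members and lists were chosen with earlier results of these data known. Promoter windows and homeoboxes were read from the mm9 genome and GENCODE transcripts by script. Other pseudocounts, filters, size limits, scalings and read minimums were tried. Some items are not reported here.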

Additional observations from a re-analysis of the deposited data

How the results depend on the processing

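No paired analysis was possible because each group has 1 library. Leaving out a library would leave a group empty, so it was not run. Depth limits the Hox genes, most of which have under 100 reads. Of the 195 recomputed differences of single Hox genes, all 195 lay inside the counting interval of the value reported. They rest on the same reads, with other pseudocounts, scalings or summed rows, and each Hox symbol has a single row. Little movement was possible, so this count is no check of the values.

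No Hox gene was called by size in the comparisons of both siRNAs with control, Ptbp1 siRNA with control and both siRNAs with Ptbp1 siRNA. A limit of 1.5-fold called 2 Hox genes (Hoxc9 and Hoxb3) between both siRNAs and control, and the interval alone, an alternative chosen after seeing the data, held for 4, 2 and 4. Over all genes, 503, 98 and 60 calls became 881, 304 and 256 with a pseudocount of 0.1 and 224, 30 and 10 with one of 5. They became 2303, 861 and 724 at 1.5-fold, 58, 9 and 2 at 3-fold, and 7988, 6200 and 5882 by the interval alone. At 5 CPM in the higher library, 38 genes were called between both siRNAs and Ptbp1 siRNA. Scaling by library totals moved the share of calls that were higher from 28.2% to 40.3% for both siRNAs against control and from 37.8% to 51.0% for Ptbp1 siRNA against control.

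The Hox median of 0.29 between both siRNAs and control was 0.18 with a pseudocount of 5. That of 0.041 between Ptbp1 siRNA and control was 0.18 over genes with 100 or more reads. That of 0.24 between both siRNAs and Ptbp1 siRNA was 0.13 with a pseudocount of 5, −0.056 with 100 or more reads, 0.10 with 10 or more reads and 0.083 without rows that overlap another. With thresholds 3 times higher, 6 Hox genes instead of 13 passed the read minimum and 3 instead of 9 reached the RPKM limit in the control library. The smaller numbers under stricter limits follow from their construction, and for the other shifts the cause was not tested.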
